A study of Danio rerio with 13 samples.

Results

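The zebrafish genes for PACAP and VIP were followed through all 13 RNA-seq libraries of the study. The members were chosen by gene ID: adcyap1a (ENSDARG00000004015) and adcyap1b (ENSDARG00000027740), which encode pituitary adenylate cyclase-activating polypeptide (PACAP), and vip (ENSDARG00000078247) and vipb (ENSDARG00000079443), which encode vasoactive intestinal peptide (VIP). They are 4 of the 31901 gene IDs counted, and each ID was listed in every library. 3 of them passed the filter on low counts in at least 1 comparison, whereas vip passed it in none.

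PACAP and VIP are short amidated peptides of the secretin and glucagon family, cut from larger precursors in secretory granules. Both act on G protein-coupled receptors that raise cyclic AMP inside the target cell. In mammals, the PAC1 receptor prefers PACAP while the VPAC1 and VPAC2 receptors take either peptide. In the mammalian gut both peptides are best known from enteric nerves, where they act on motility, secretion and blood flow, and in the pancreas both can increase insulin release.

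The libraries fell into 4 groups: 3 of pax6b-/- enteroendocrine cells (EECs, the hormone cells of the gut) and 4 of wild-type EECs, from larvae at 4 dpf, and 3 of pax6b-/- pancreatic endocrine cells (PECs) and 3 of wild-type PECs, from the dorsal pancreatic bud of embryos at 27 hpf. All animals were of the AB strain and carried the transgene Tg(pax6b:GFP)ulg515, whose pax6b regulatory sequence drives GFP, and GFP+ cells were sorted by FACS in consecutive rounds, so any cell in which the transgene was active could be collected. Mutants were homozygous for the null allele sa0086. That line was first crossed with the transgenic line, heterozygous carriers were then inbred, and mutants were picked by a missing or reduced lens. The paper does not say that the wild-type animals were siblings of the mutants, and the part of line background in the mutant comparisons was not tested. Each library was 1 preparation pooled from about 200 animals, and wild-type EEC preparations held about 3000 cells. EECs and PECs also differed in age and in the enzymes used for dissociation, so tissue, age and dissociation cannot be told apart.

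Between 22423938 and 61895597 reads were counted on genes per library (median 33343637), and the smallest level taken as detected, 3 counts, was 0.0485 to 0.134 CPM (CPM scales each library by all its counts on genes). All 10 endocrine marker genes were above this floor in every library, with a summed level of 8271 to 9140 CPM in pax6b-/- EECs, 7071 to 7791 CPM in wild-type EECs, 14682 to 20331 CPM in pax6b-/- PECs and 11929.8 to 15608 CPM in wild-type PECs. These markers include pax6b, the mutated gene, whose regulatory sequence drove the GFP used for sorting. Their sum is therefore not an independent check of the sorting. pax6b RNA was not reduced in the mutants. Its level was 1250.0 ± 222 CPM in pax6b-/- EECs and 641 ± 157 CPM in the wild-type libraries (SD, n = 3 and n = 4). In EECs it was higher, by 2.04-fold (adjusted p = 0.0278, edgeR, wild-type EEC replicate 4 left out). In PECs it had 4830 ± 2355 CPM in pax6b-/- and 3752 ± 1291 CPM in wild-type libraries (SD, n = 3 each). The log2 fold change there was 0.08 (adjusted p = 0.934, edgeR). The level of this gene thus does not check the genotype labels. The paper states that the selection of homozygotes was checked afterwards, by finding the null allele in all pax6b reads of the mutant libraries. The reads themselves were not analysed here. Replicate 1 of the pax6b-/- EECs was the highest EEC library for the enterocyte gene fabp2, with 285 CPM, against 39.0 and 34.0 CPM in the other pax6b-/- EEC libraries and 49.2 to 96.8 CPM in wild-type EECs, and also for the enterocyte genes apoa1a, apoa4b.1 and fabp1b.1. The enterocyte genes vil1, anpepb and slc15a1b did not stand apart there, and the sum of the 7 enterocyte markers, 2180 CPM, lay within the 1885 to 2466 CPM of wild-type EECs.

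The members had different patterns across the groups. adcyap1a and vipb were abundant in EECs of both genotypes and nearly absent from PECs. adcyap1b was low in wild-type cells of both tissues and higher in pax6b-/- cells of both tissues, and vip was at or close to the detection floor in all libraries but a few EEC libraries.

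**Figure D1:**
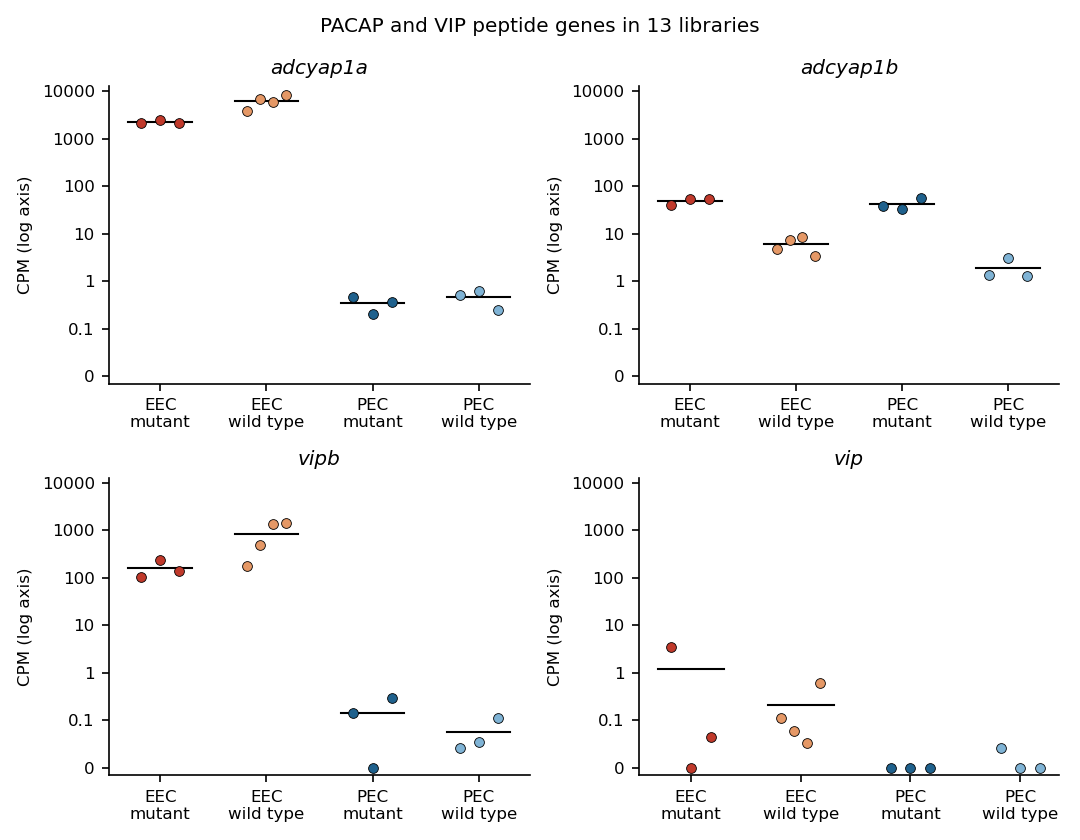
Level of adcyap1a, adcyap1b, vipb and vip in each of the 13 libraries, in CPM on a log axis, with counts of 0 drawn at the tick marked 0; points are libraries and horizontal lines the group means (no line is drawn where the mean is below 0.015 CPM). The pax6b-/- libraries of adcyap1b lie between 33.0 and 57.8 CPM in both tissues, above all wild-type libraries, while adcyap1a and vipb are high in EECs only.

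adcyap1a had 2118, 2529 and 2183 CPM in the 3 pax6b-/- EEC libraries, against 3949.8, 6770.1, 5967 and 8491 CPM in the 4 wild-type EEC libraries. The groups did not overlap, and the pax6b-/- libraries lay closer together than the wild-type ones. The mean was 2277 ± 221 CPM in pax6b-/- EECs (SD, n = 3) and 6294 ± 1885 CPM in the wild-type libraries (SD, n = 4). In the test, which left out wild-type EEC replicate 4 because the study's own table of normalised values does not list it, adcyap1a fell by 1.35 on the log2 scale (SE 0.23), to 0.392 of the wild-type level, with an adjusted p of 0.00855 (quasi-likelihood F-test of edgeR, adjusted over all tested genes by Benjamini and Hochberg, as are all adjusted p-values of edgeR given here). With all 4 wild-type libraries the log2 fold change was -1.58. In bulk libraries, fewer cells that express a gene and less RNA of it per cell cannot be told apart, and this holds for each result given here.

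adcyap1b moved the other way in the same libraries. It had 39.6, 53.6 and 55.0 CPM in pax6b-/- EECs, against 4.81, 7.47, 8.60 and 3.48 CPM in wild-type EECs, without overlap. The mean was 49.4 ± 8.51 CPM in pax6b-/- EECs (SD, n = 3) and 6.09 ± 2.35 CPM in the wild-type libraries (SD, n = 4), and the counts behind these values were 1233 to 2054 and 90 to 296 per library. With wild-type EEC replicate 4 left out, adcyap1b rose by 2.76 on the log2 scale (SE 0.31, 6.77-fold, adjusted p = 7.39e-04, edgeR). Leaving out each of the 6 libraries in turn gave log2 fold changes of 2.53 to 2.98, all with an adjusted p under 0.1, the threshold used throughout.

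vipb, the VIP gene of these cells, had 105, 241 and 139 CPM in pax6b-/- EECs, against 176, 489, 1342 and 1397 CPM in wild-type EECs. The groups overlapped, because wild-type EEC replicate 1 was below pax6b-/- EEC replicate 2. The mean was 162 ± 70.5 CPM in pax6b-/- EECs (SD, n = 3) and 851 ± 612 CPM in the wild-type libraries (SD, n = 4). The log2 fold change was -2.13 (SE 0.81, 95% interval from -4.13 to -0.13) and was not called by edgeR (adjusted p = 0.320, wild-type EEC replicate 4 left out). Without wild-type EEC replicate 1 it was -2.60 with an adjusted p of 0.0408, and DESeq2 gave an adjusted p of 0.00602 for all 6 libraries, so the call for vipb rests on 1 library and on the tool. Without pax6b-/- EEC replicate 1 it was -1.90 (adjusted p = 0.688, edgeR).

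Of the 3 members tested in EECs, 2 were called, adcyap1b higher and adcyap1a lower. Over all genes tested in EECs, 4.18% were called, 1.82% higher and 2.36% lower. With wild-type EEC replicate 4 left out, groups did not overlap for 20.4% of all genes tested, and for adcyap1a and adcyap1b of the members. These 2 members did not overlap with that library included either, for which no share over all genes was computed. 0.787% of the genes tested had a higher log2 fold change than adcyap1b.

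Both peptides are known from enteric nerves. The paper reports no overlap between GFP of this transgene and the enteric neuron marker Hu in larvae. With published RNA-seq of enteric neurons beside its own, it assigns adcyap1a to EECs and adcyap1b to enteric neurons. It reports vipb in both cell types, also by in situ hybridization. Here the 9 enteric neuron markers were set beside the member levels. Their summed level was 557 to 634 CPM in pax6b-/- EECs and 327 to 492 CPM in wild-type EECs. Most of it came from ret, which had 532 to 600.3 CPM in pax6b-/- EECs and 273 to 459 CPM in wild-type EECs. ret was also at 144 to 188 CPM in wild-type PECs, so the sum cannot be read as an amount of enteric neurons. In pax6b-/- EECs 6 to 9 of the 9 markers were above the floor, and in wild-type EECs 5 to 9. The neuronal gene phox2a had 22.1, 2.88 and 2.05 CPM in pax6b-/- EECs, against 9.01, 4.14, 0.194 and 1.05 CPM in wild-type EECs, which overlapped. elavl4, another neuronal gene, had 10.8, 22.4 and 16.1 CPM in pax6b-/- EECs, against 32.2, 22.4, 30.2 and 26.5 CPM in wild-type EECs. Replicate 1 of the pax6b-/- EECs was thus the EEC library highest in phox2a and lowest in elavl4, and the part of neuronal cells in the member levels was not tested. Without this library the log2 fold change of adcyap1b was 2.89 (adjusted p = 4.47e-04, edgeR) and that of adcyap1a was -1.30 (adjusted p = 0.0296, edgeR).

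In PECs, adcyap1b was again higher and was the only member called, while vip and vipb were too low to be tested. It had 39.0, 33.0 and 57.8 CPM in pax6b-/- PECs, against 1.38, 3.08 and 1.31 CPM in wild-type PECs. The lowest pax6b-/- library was thus far above the highest wild-type library. The mean was 43.3 ± 13.0 CPM in pax6b-/- PECs and 1.92 ± 1.00 CPM in wild-type PECs (SD, n = 3 each), on 802 to 1599 and 53 to 90 counts per library. adcyap1b rose by 4.22 on the log2 scale (SE 0.47, 18.6-fold, adjusted p = 1.14e-04, edgeR), and only 0.305% of the genes tested had a higher log2 fold change. Leaving out each library in turn gave 3.91 to 4.85, each time with the gene called.

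The enteric neuron markers summed to 499 to 660 CPM in pax6b-/- PECs and 427 to 446 CPM in wild-type PECs, again with ret as the largest part (264 to 326 CPM in pax6b-/- PECs, 144 to 188 CPM in wild-type PECs). phox2a had 86.9, 11.8 and 60.1 CPM in pax6b-/- PECs, against 1.33, 29.4 and 34.5 CPM in wild-type PECs, so the groups overlapped. elavl4 lay the other way and without overlap, at 49.9, 36.1 and 37.9 CPM in pax6b-/- PECs, against 115, 99.6 and 114 CPM in wild-type PECs. The part of neuronal cells in the adcyap1b level was not tested.

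adcyap1a was barely detected in PECs of either genotype. It had 16, 5 and 10 counts in pax6b-/- PECs, against 20, 18 and 15 counts in wild-type PECs, all above the floor of 3 counts. These counts are 0.342 ± 0.127 CPM in pax6b-/- PECs and 0.460 ± 0.194 CPM in wild-type PECs (SD, n = 3 each). The groups overlapped in CPM, and the log2 fold change of -0.69 (SE 0.77, 95% interval from -2.34 to 0.97) was not called by edgeR (adjusted p = 0.677). vipb had 5, 0 and 8 counts in pax6b-/- PECs, against 1, 1 and 7 counts in wild-type PECs, and was too low to be tested. Of the 2 members tested in PECs, 1 was called, against 11.2% of all genes tested, 5.43% higher and 5.74% lower. Groups did not overlap for 24.6% of all genes tested in PECs.

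**Figure D2:**
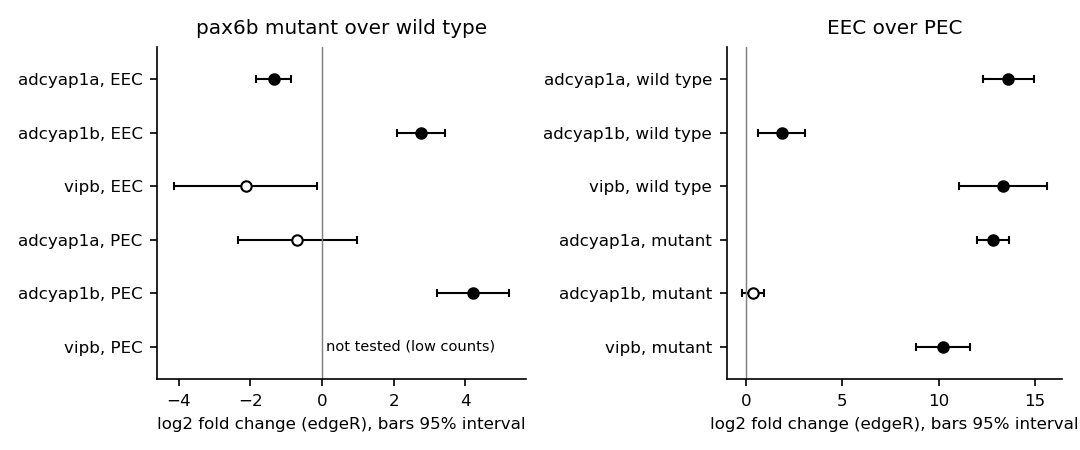
Log2 fold changes of adcyap1a, adcyap1b and vipb from edgeR, for pax6b-/- over wild type in each tissue (left) and EEC over PEC in each genotype (right); filled points passed an adjusted p of 0.1, open points did not, and bars are 95% intervals. adcyap1b is to the right of 0 in both mutant comparisons (2.76 in EECs, 4.22 in PECs), and adcyap1a is to the left of 0 in EECs (-1.35).

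The balance between both PACAP genes was also read within each library, where the ratio of their counts does not depend on the scaling between libraries. In pax6b-/- EECs there were 0.0187, 0.0212 and 0.0252 counts of adcyap1b per count of adcyap1a, against 0.00122, 0.00110, 0.00144 and 4.10e-04 in wild-type EECs. Counts are not corrected for gene length, so the ratio compares libraries and not the levels of both genes, and it was higher in every pax6b-/- EEC library than in any wild-type one. On the log2 scale the ratio was -5.54 ± 0.22 in pax6b-/- EECs and -9.65 ± 0.19 in wild-type EEC replicates 1 to 3 (SD, n = 3 each). The difference of 4.11 (17.3-fold) had an exact permutation p of 0.1, two-sided, the smallest that 3 against 3 libraries allow, and no overlap. With all 4 wild-type libraries it was 4.51 (22.8-fold, exact permutation p = 0.0571).

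The same ratio was higher in pax6b-/- PECs than in wild-type PECs, again without overlap. There were 85.1, 160.4 and 159.9 counts of adcyap1b per count of adcyap1a in pax6b-/- PECs, against 2.65, 5.00 and 5.40 in wild-type PECs. The log2 ratio was 7.02 ± 0.53 in pax6b-/- PECs and 2.05 ± 0.56 in wild-type PECs (SD, n = 3 each), a difference of 4.97 (31.2-fold, exact permutation p = 0.1, two-sided), with few counts of adcyap1a in the denominator. The ratio of vipb to adcyap1a, in contrast, overlapped between the genotypes in EECs. Its log2 value was -4.33 to -3.39 in pax6b-/- EECs and -4.49 to -2.15 in wild-type EEC replicates 1 to 3, with means of -3.90 and -3.48 and a difference of -0.42 (n = 3 each, exact permutation p = 0.7, two-sided). Over these 3 ratio tests the Benjamini-Hochberg adjusted exact p-values were 0.15, 0.15 and 0.7. With 3 against 3 libraries none of them could fall under 0.1. The ratios use the same counts as the fold changes of the single genes, so they are not a separate result. In PECs the adcyap1a change that enters the ratio was not called.

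**Figure D3:**
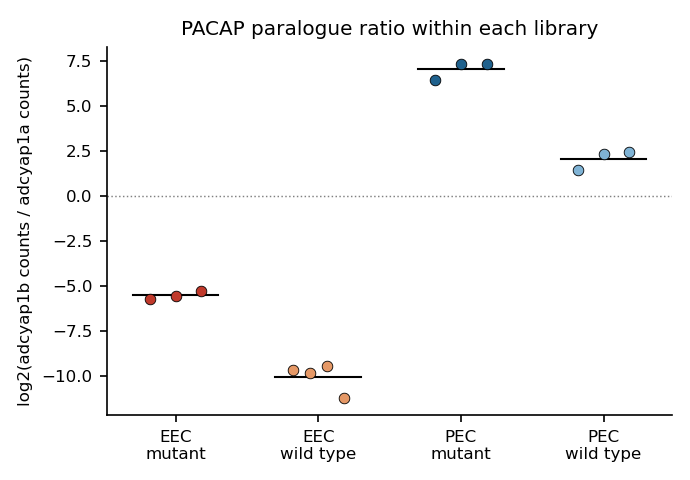
Log2 ratio of adcyap1b counts to adcyap1a counts in each library (points) with group means (lines), with equal counts at 0. The mean is -5.54 in pax6b-/- EECs and 7.02 in pax6b-/- PECs, in each tissue above all wild-type libraries.

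The tissues were then compared within each genotype. These comparisons use the same libraries as the mutant comparisons, so they are not further evidence for those. In wild type, the counts of adcyap1a were 184626 to 242965 per EEC library and 15 to 20 per PEC library. Summed over libraries, its CPM was 14069 times higher in wild-type EECs than in wild-type PECs, with an exact 95% interval of 10755 to 18781 that covers counting error only. In pax6b-/- cells this ratio was 6332 (4461 to 9319.5), on 48961 to 109848 counts per EEC library and 5 to 16 per PEC library. The fitted log2 fold change was 13.62 (SE 0.61) in wild type and 12.82 (SE 0.38) in pax6b-/- cells, with adjusted p-values of 4.65e-08 and 2.47e-08 in edgeR's fit, which left out wild-type EEC replicate 4 here and for vipb.

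vipb followed the same tissue pattern. It had 10841 to 41513 counts per wild-type EEC library, against 9 counts in all wild-type PEC libraries together, a ratio of summed CPM of 9935 (exact 95% interval 5233 to 21727). In pax6b-/- cells it had 3112 to 8027 counts per EEC library, against 13 counts in all PEC libraries, a ratio of 1032 (603 to 1938). The fitted log2 fold change was 13.36 (SE 1.03, adjusted p = 6.38e-06) in wild type and 10.23 (SE 0.65, adjusted p = 9.78e-07) in pax6b-/- cells in edgeR's fit.

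adcyap1b was present in both tissues. In wild type its levels of 3.48 to 8.60 CPM in EECs were above the 1.31 to 3.08 CPM in PECs, and the log2 fold change was 1.83 (SE 0.57, adjusted p = 0.0303, edgeR, wild-type EEC replicate 4 left out). Without wild-type PEC replicate 1 it was 1.69 and did not pass (adjusted p = 0.101). In pax6b-/- cells the levels of 39.6 to 55.0 CPM in EECs overlapped the 33.0 to 57.8 CPM in PECs. The log2 fold change there was 0.36, with a 95% interval from -0.22 to 0.95 and an adjusted p of 0.334. Of the 3 members tested, 3 were called in wild type and 2 in pax6b-/- cells, against 34.2% and 40.3% of all genes tested in these comparisons. All calls were higher in EECs, as for 18.4% of all genes in wild type and 21.0% in pax6b-/- cells. The CPM of EEC and PEC libraries did not overlap for 3 of 3 tested members in wild type (42.6% of all genes, wild-type EEC replicate 4 left out). In pax6b-/- cells it did not overlap for 2 of 3 (48.3% of all genes).

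Whether the mutant effect differed between the tissues was tested by the interaction of genotype and tissue over 12 libraries. It was -1.46 on the log2 scale for adcyap1b (SE 0.54, 95% interval from -2.61 to -0.32, adjusted p = 0.228, edgeR), where a negative value means a less positive mutant effect in EECs than in PECs. The values were -0.77 for adcyap1a (95% interval from -1.92 to 0.38, adjusted p = 0.629) and -3.07 for vipb (from -6.21 to 0.08, adjusted p = 0.407), the vipb value resting on few PEC counts. None of the 3 members was called by edgeR or by DESeq2, against 3.58% of all genes tested (1.71% higher, 1.87% lower). For 1 of them, adcyap1b, the unadjusted p of edgeR was under 0.05, at 0.0154. Without wild-type PEC replicate 2, the interaction of adcyap1b was -2.06 with an adjusted p of 0.0416, so this call depends on that library.

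vip was almost absent. PEC libraries held 0, 0 and 0 counts in pax6b-/- cells and 1, 0 and 0 counts in wild-type cells, and the floor of 3 counts there allows up to 0.123 CPM. In EECs there were 182, 0 and 1 counts in pax6b-/- libraries, against 7, 2, 1 and 16 counts in wild-type libraries. Nearly all counts in pax6b-/- EECs were thus in replicate 1 (3.51 CPM), and the other pax6b-/- libraries were below the floor. Without it the pax6b-/- EECs held 0 and 0.0446 CPM, against 0.0323 to 0.619 CPM in wild-type EECs. No test was made for vip, which did not pass the filter in any comparison.

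The same library, pax6b-/- EEC replicate 1, was the highest EEC library for the neuronal genes phox2a (22.1 CPM) and hand2 (7.21 CPM), which were singled out after their values were seen. In the other EEC libraries of both genotypes these genes reached at most 9.01 and 1.22 CPM, both in wild-type EEC replicate 1. In pax6b-/- PECs, which held no count of vip, phox2a had 11.8 to 86.9 CPM. Wild-type EEC replicate 4, with the second-highest vip level (0.619 CPM), had 1.05 CPM of phox2a and 0.194 CPM of hand2. ELAVL3, chata (1.27 CPM) and slc18a3a (1.77 CPM) were also highest in pax6b-/- EEC replicate 1. Other markers of the list were not: elavl4 was lowest there, at 10.8 CPM against 16.1 to 32.2 CPM in the other EEC libraries, ret was higher in pax6b-/- EEC replicate 2, and NOS1 was highest in wild-type EEC replicate 1. The part of neuronal cells in the vip counts was not tested.

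**Figure D4:**
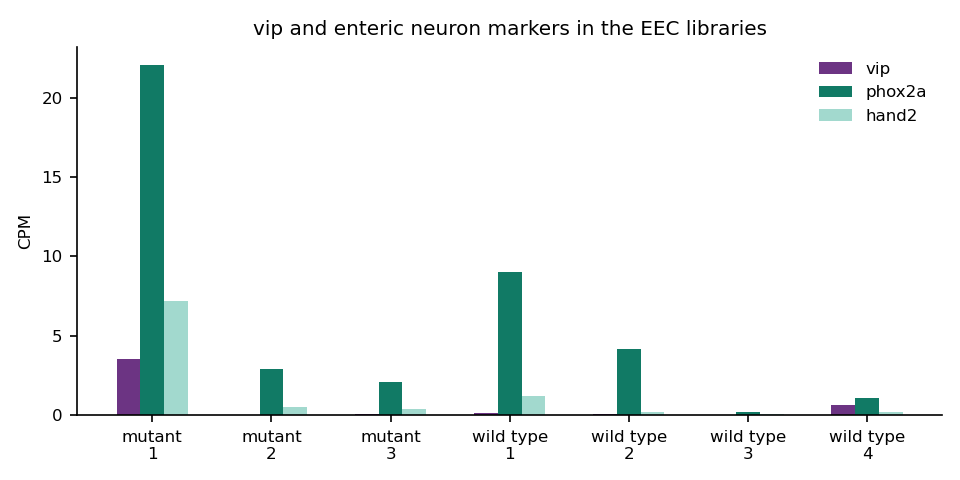
Level of vip and of the enteric neuron markers phox2a and hand2 (CPM, linear axis from 0) in the 3 pax6b-/- and the 4 wild-type EEC libraries; each bar is 1 library. pax6b-/- replicate 1 is the highest library for all 3 genes, with 3.51 CPM of vip and 22.1 CPM of phox2a. Both markers were chosen from a list of 9 after their values were seen, and elavl4 and ret of that list were not highest there.

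The receptors were measured in the same libraries, 5 genes in all. adcyap1r1b (ENSDARG00000053724), a gene for the PACAP-preferring PAC1 receptor, had 10.4, 5.92 and 7.34 CPM in pax6b-/- PECs, against 1.28, 0.992 and 1.18 CPM in wild-type PECs. The groups did not overlap, and adcyap1r1b rose by 2.54 on the log2 scale (SE 0.44, 5.82-fold, adjusted p = 0.00291, edgeR). Its PEC call remained when each library was left out in turn, with log2 fold changes of 2.30 to 2.72. In EECs adcyap1r1b was at 0.617, 0.450 and 0.178 CPM in pax6b-/- libraries, against 0.390, 0.268, 0.0970 and 0.116 CPM in wild-type libraries. These levels overlapped and the log2 fold change of 0.68 (SE 0.96) was not called (adjusted p = 0.812, edgeR). The interaction for adcyap1r1b was -1.85 with an adjusted p of 0.383, so a difference between the tissues was not shown.

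vipr2 (ENSDARG00000012353), the gene for the VPAC2 receptor, had 3.52, 1.03 and 1.63 CPM in pax6b-/- PECs, against 3.72, 4.96 and 18.2 CPM in wild-type PECs. The groups did not overlap, but only 1 wild-type library was far above the others. The log2 fold change was -2.24 (SE 0.59, adjusted p = 0.0362, edgeR). It did not pass without wild-type PEC replicate 3 (-1.43, adjusted p = 0.103), without pax6b-/- PEC replicate 2 (-1.93, adjusted p = 0.146) or without pax6b-/- PEC replicate 3 (-2.10, adjusted p = 0.114). In EECs vipr2 was at 0 to 0.251 CPM in pax6b-/- libraries and 0.0813 to 0.774 CPM in wild-type libraries, too low to be tested.

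The other receptor genes were not called in either mutant comparison. The other PAC1 gene, listed by the reference as ADCYAP1R1 (ENSDARG00000105201), had 0.463, 0.0300 and 0.134 CPM in pax6b-/- EECs, against 0.471, 0.685, 2.68 and 4.38 CPM in wild-type EECs. These libraries did not overlap, but the log2 fold change of -2.63 was not called by edgeR (adjusted p = 0.292). In PECs ADCYAP1R1 averaged 2.49 ± 0.342 CPM in pax6b-/- libraries and 2.38 ± 2.96 CPM in wild-type libraries (SD, n = 3 each), and the groups overlapped. The VPAC1 genes vipr1a (ENSDARG00000028878) and VIPR1 (ENSDARG00000059058) stayed at or below 1.64 CPM in every library. In all, 2 of 5 receptor genes were called in PECs, 1 in each direction (11.2% of all genes tested), and 0 of 3 in EECs (4.18% of all genes), with 1 receptor, ADCYAP1R1, at an unadjusted value under 0.05 in edgeR and 1 receptor called by DESeq2.

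Between the tissues, vipr2 was lower in EECs than in PECs in wild type (log2 fold change -4.38, SE 0.84, adjusted p = 0.00198) and in pax6b-/- cells (-3.88, SE 0.99, adjusted p = 0.0108) in edgeR's fit. adcyap1r1b was lower in pax6b-/- EECs than in pax6b-/- PECs (-4.01, SE 0.55, adjusted p = 2.24e-04). Its wild-type difference of -2.14 (adjusted p = 0.0751) ran from -2.62 to -1.80 with 1 library left out and was called only when that library was wild-type EEC replicate 1. ADCYAP1R1 was called lower in EECs in pax6b-/- cells (-3.31, adjusted p = 0.00940) and was not called in wild type (-0.68, adjusted p = 0.648). vipr1a was not called in wild type (-0.04, adjusted p = 0.978, edgeR) or in pax6b-/- cells (1.37, adjusted p = 0.259, edgeR). VIPR1 was not tested between the tissues. Thus the tissue in which adcyap1a and vipb were abundant was the one with the lower vipr2 level, which was not so for every receptor.

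**Figure D5:**
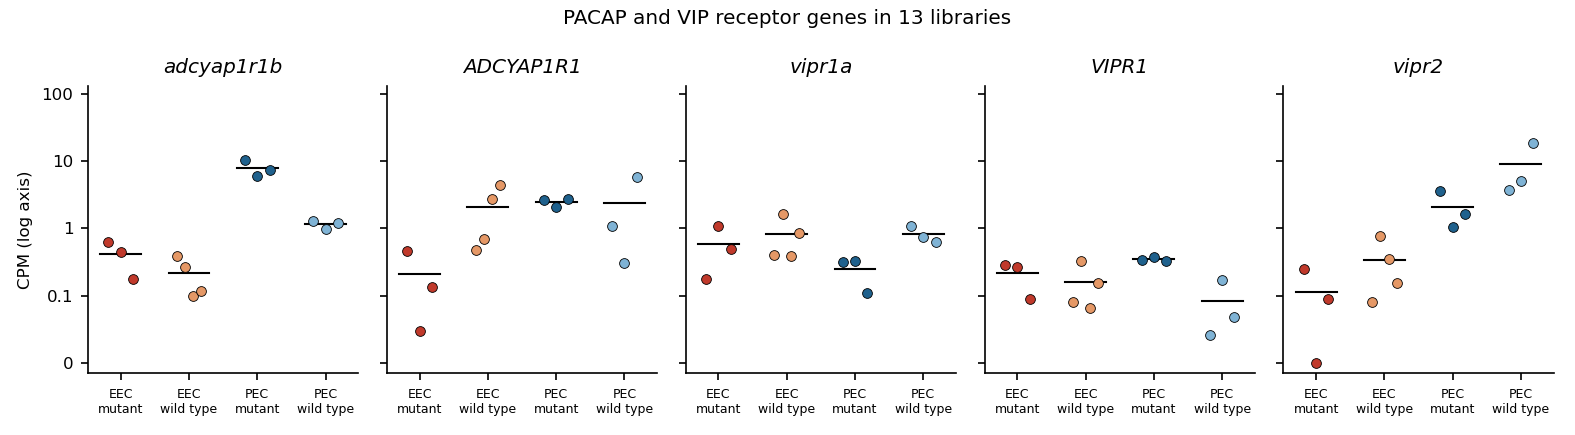
Level of the PACAP and VIP receptor genes in each of the 13 libraries, in CPM on a log axis, with counts of 0 drawn at the tick marked 0; lines are group means. adcyap1r1b is at 5.92 to 10.4 CPM in pax6b-/- PECs and at 0.992 to 1.28 CPM in wild-type PECs, and all EEC libraries are at or below 4.38 CPM for every receptor.

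The genes related to these peptides were described by lists. Of the related peptide genes, gcgb, a glucagon gene, was called in both tissues. It had 2.04 ± 0.618 CPM in pax6b-/- EECs and 159 ± 107 CPM in wild-type EEC replicates 1 to 3 (SD, n = 3 each), a log2 fold change of -6.30 (SE 0.61, adjusted p = 0.00146, edgeR). In PECs gcgb had 19.7 to 47.9 CPM in pax6b-/- libraries and 9584 to 16399 CPM in wild-type libraries, a log2 fold change of -8.68. It was the only called gene of the 3 tested in EECs (4.18% of all genes, 2.36% lower) and of the 2 tested in PECs (11.2% of all genes, 5.74% lower). Reads of gcgb and gcga, if alike, may not be fully separable.

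Both related receptor genes tested in PECs were called lower, as were 5.74% of all genes tested. The glucagon receptor gene gcgra had 0.716 to 1.40 CPM in pax6b-/- PECs and 41.2 to 53.8 CPM in wild-type PECs (log2 fold change -5.75, SE 0.38, adjusted p = 2.04e-06, edgeR). ghrhrb, named as a receptor of growth hormone-releasing hormone, had 1.07 to 1.63 CPM in pax6b-/- PECs and 2.15 to 7.32 CPM in wild-type PECs. It fell by 1.94 on the log2 scale (adjusted p = 0.0297, edgeR), a call that was lost without wild-type PEC replicate 1 (-1.84, adjusted p = 0.104) or pax6b-/- PEC replicate 2 (-1.78, adjusted p = 0.122). In EECs 0 of 1 related receptor was called: gcgra, at 9.43, 3.33 and 3.52 CPM in pax6b-/- and 0.970 to 2.32 CPM in wild-type libraries, had a log2 fold change of 1.81 with an unadjusted p of 0.0107 and an adjusted p of 0.165 (edgeR), and DESeq2 called 1 related receptor.

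The peptide processing genes include those that cut and amidate such precursors. Of 8 tested in EECs, 1 was called, against 4.18% of all genes: pcsk2, which encodes prohormone convertase 2. pcsk2 had 51.4 to 96.3 CPM in pax6b-/- EECs and 198 to 240.1 CPM in wild-type EEC replicates 1 to 3 (log2 fold change -1.59, SE 0.26, adjusted p = 0.00649, edgeR). Wild-type EEC replicate 4, which was left out, had only 10.8 CPM, and with it the value was -1.19 and not called (adjusted p = 0.575, edgeR). In PECs pcsk2 lower and pam, the gene for the amidating enzyme, higher were called among 8 tested, against 11.2% of all genes. pam had 136 to 352 CPM in pax6b-/- PECs and 52.7 to 171 CPM in wild-type PECs, which overlapped (log2 fold change 1.27, SE 0.40, adjusted p = 0.0763, edgeR). pcsk2 had 19.3 to 102 CPM in pax6b-/- PECs and 55.8 to 715 CPM in wild-type PECs, which overlapped too (-2.42, SE 0.74, adjusted p = 0.0687, edgeR). With 1 library left out pcsk2 ran from -3.12 to -0.84 and was called only when that library was wild-type PEC replicate 1. pam ran from 0.95 to 1.79 and was called only without wild-type PEC replicate 3 or pax6b-/- PEC replicate 3.

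Of the genes of cyclic AMP signalling, 1 of 25 tested in EECs was higher and 3 were lower (1.82% and 2.36% of all genes), with a list median of -0.08 on the log2 scale beside 0.02 over all genes. rapgef3, a cyclic AMP-activated exchange factor for the small GTPase Rap, was lower in both tissues. It had 3.17 to 5.64 CPM in pax6b-/- EECs and 14.7 to 16.5 CPM in wild-type EEC replicates 1 to 3 (log2 fold change -1.88, SE 0.36, adjusted p = 0.0148, edgeR). In PECs rapgef3 averaged 0.268 ± 0.197 CPM in pax6b-/- libraries and 2.91 ± 1.52 CPM in wild-type libraries, without overlap (SD, n = 3 each, log2 fold change -3.61, SE 0.75, adjusted p = 0.00957, edgeR). These calls of rapgef3 held without any 1 library in each tissue.

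The adenylyl cyclase genes adcy7 and adcy2b were the other cyclic AMP genes lower in pax6b-/- EECs. adcy7 had 49.7 to 63.7 CPM in pax6b-/- EECs and 120.5 to 140.2 CPM in wild-type EEC replicates 1 to 3 (log2 fold change -1.21, SE 0.22, adjusted p = 0.0120, edgeR). adcy2b had 0.120 to 0.347 CPM in pax6b-/- EECs and 2.29 to 2.95 CPM in the same wild-type libraries (-3.58, SE 0.77, adjusted p = 0.0284, edgeR), a call lost without pax6b-/- EEC replicate 2 (adjusted p = 0.142) or 3 (adjusted p = 0.101). RAPGEF4 (ENSDARG00000079872), a second Rap exchange factor, was higher by 0.71 (adjusted p = 0.0925, edgeR), and this call was lost when any 1 library was left out (0.68 to 0.74).

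In PECs, 3 of 26 cyclic AMP genes were higher and 1, rapgef3, was lower (5.43% and 5.74% of all genes), with a list median of 0.20 beside 0.02 over all genes. The higher ones were prkar1ab, a regulatory subunit gene of protein kinase A (19.3 to 45.6 CPM in pax6b-/- PECs, 7.84 to 14.3 CPM in wild-type PECs, log2 fold change 1.48, adjusted p = 0.0217, edgeR), the adenylyl cyclase gene ADCY2 (ENSDARG00000058392) and RAPGEF4 (ENSDARG00000075924). ADCY2 had 16.6 to 28.7 CPM in pax6b-/- PECs and 7.97 to 10.8 CPM in wild-type PECs (1.13, adjusted p = 0.0463, edgeR). RAPGEF4 (ENSDARG00000075924) had 5.64 to 11.3 CPM in pax6b-/- PECs and 2.45 to 3.04 CPM in wild-type PECs (1.39, adjusted p = 0.0693, edgeR). Leaving out 1 library at a time gave 1.24 to 1.78 for prkar1ab, which was not called without pax6b-/- PEC replicate 1 or 2. ADCY2 ran from 0.95 to 1.32 and was not called without wild-type PEC replicate 1 or 2 or pax6b-/- PEC replicate 1. RAPGEF4 was not called without wild-type PEC replicate 1 or 2 or pax6b-/- PEC replicate 2.

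Genes whose level ran most like that of a member over the 13 libraries were found by Pearson's r of log2(CPM + 1) among 9885 genes. The libraries share 2 tissues and 2 genotypes, so these values are a description. For adcyap1a they were ripk4 (r = 0.998), anpepb, si:ch73-269m23.4, ENSDARG00000100052 and plac8.1. ripk4, which encodes a protein kinase of epithelia, had 35.7 ± 5.17 CPM in pax6b-/- EECs and 63.2 ± 6.24 CPM in the wild-type libraries (SD, n = 3 and n = 4), and at most 0.240 CPM as a mean in PECs. anpepb, which encodes an aminopeptidase N and stands in the enterocyte marker list, had 359 ± 143 CPM in pax6b-/- EECs and 682 ± 158 CPM in wild-type EECs. The 7 enterocyte markers together summed to 1109 to 2180 CPM in pax6b-/- EECs and 1885 to 2466 CPM in wild-type EECs, which overlapped, and their part in the adcyap1a level was not tested.

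For adcyap1b the values of r were lower. The genes were si:ch1073-190k2.1 (r = 0.936), luzp2, arl2, malt2 and edil3a. si:ch1073-190k2.1 had 41.3 ± 15.4 CPM in pax6b-/- EECs and 0.0246 ± 0.0296 CPM in wild-type EECs, and 28.4 ± 7.97 CPM in pax6b-/- PECs with no count in wild-type PECs (SD, n = 3, and n = 4 for wild-type EECs). arl2, which encodes a small GTPase, had 57.5 ± 6.04 CPM in pax6b-/- EECs and 13.8 ± 3.83 CPM in wild-type EECs, and 89.6 ± 21.9 CPM in pax6b-/- PECs and 11.5 ± 2.30 CPM in wild-type PECs. All 5 genes, like adcyap1b, had a higher mean in pax6b-/- cells of both tissues. They were chosen by r with adcyap1b over these same libraries, so this is not a separate result.

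For vipb the genes were spint2 (r = 0.992), zgc:123284, trpa1b, si:dkey-16m19.4 and si:ch211-133l5.7. trpa1b, which encodes an irritant-sensing ion channel, had 229 ± 14.8 CPM in pax6b-/- EECs and 631 ± 311 CPM in wild-type EECs, with means of 1.29 CPM in pax6b-/- PECs and 1.12 CPM in wild-type PECs (SD, n = 3 and n = 4). spint2, a protease inhibitor gene, had 206 ± 4.27 CPM in pax6b-/- EECs and 265 ± 53.4 CPM in wild-type EECs. With a pseudocount of 0.1 in place of 1, 4 of the 5 genes named for adcyap1a were named again, 3 of 5 for adcyap1b and 2 of 5 for vipb.

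In the annotation of the assembly GRCz12tu, adcyap1a overlaps acer2 and adcyap1b overlaps yes1, and whether the counting used strand was not stated. ACER2 (ENSDARG00000077782) had 2.36 to 7.38 CPM in pax6b-/- EECs and 1.36 to 7.95 CPM in wild-type EECs, and was not called between genotypes (log2 fold change -0.15, adjusted p = 0.943, edgeR). adcyap1a had 2118 to 2529 CPM in the same pax6b-/- libraries. yes1 was not matched to a counted ID and was not analysed here. In the same annotation adcyap1a lies on the chromosome of pax6b, but not within 10 Mb of it. adcyap1b, vip and vipb lie on other chromosomes than pax6b. Mutants were picked as homozygous at pax6b, and the part of linked alleles in the adcyap1a change was not tested.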

How the data were processed

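RNA was measured in 13 libraries of FACS-sorted GFP+ cells, made by the Smart-seq2 protocol with 13 PCR cycles and Nextera-XT kits. The authors trimmed the reads, mapped them with STAR 2.5.4b to GRCz11 and deposited whole-number counts per gene of Ensembl release 92, without normalization. The exact intervals of summed CPM ratios and the floors cover counting error only. These libraries carry no molecular identifiers, so copies made by PCR were counted as separate reads. Intervals of a log2 fold change come from the fit and include the spread between preparations. Preparations are described as independent. The p-values of edgeR and DESeq2 set a difference against the spread between preparations, and those of the permutation tests come from reassigning libraries to groups.

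CPM is the count over all counts on genes of a library. Comparisons used edgeR 4.0.16 (limma 3.58.1, R 4.3.3): TMM scaling, filterByExpr, a robust quasi-likelihood fit and Benjamini-Hochberg adjustment over all tested genes with a threshold of 0.1. SE is the absolute log2 fold change over the square root of F, and 95% intervals of a log2 fold change use the t quantile at the fit's total degrees of freedom. Wild-type EEC replicate 4 entered levels, ratios of summed CPM and Pearson's r. It was left out of the main tests and entered tests only where all 4 wild-type EEC libraries are named. Alternatives were DESeq2 1.42.0, RLE scaling, other filters, a threshold of 0.05, a fit of all 12 samples, all 4 wild-type EECs, a replicate block, CPM on TMM-scaled totals and leaving out each replicate. The fitting code was tried on simulated counts, drawn with the spread estimated from these data. This does not test whether the model of the fit holds here.

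The members and the lists of pathway and marker genes were chosen with earlier results of these data known. Named genes were the 4 members, pax6b, all 5 receptors, from each other list at most 4 called genes per direction with the largest changes in each mutant comparison, and for each member with at least 10 CPM in at least 3 libraries the 5 genes with the highest r. Marker genes and genes overlapping a member were named after their values were seen. Symbols came from the paper's tables and a reference list. No match was found for 2 of 9 related receptors, 1 of 9 processing genes and 1 neuron marker. All endocrine, enteric neuron and enterocyte markers were matched. The lists for goblet, acinar, erythroid, muscle, endothelial and leukocyte cells, whose sums are not given here, each lacked a match for some genes. The values of 1 marker gene are not reported here.

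The replicate numbers in the labels were checked by correlating same-numbered deviations from group means. Only in pax6b-/- EECs against pax6b-/- PECs were all 3 above 0.1 (0.131, 0.175 and 0.361). Differently numbered pairs there ran from -0.248 to 0.139, so the highest of them exceeded the lowest same-numbered value. The correlations do not settle whether same-numbered samples are paired, and no source names a shared batch. A replicate block was therefore run only as an alternative. The values given for this comparison are from the fit without the block.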

Additional observations from a re-analysis of the deposited data

Results flagged for a closer look

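In wild-type EECs, 1 of the 4 libraries stood apart for vip: replicate 4 had 0.619 CPM (16 counts), against 0.0323 to 0.114 CPM in the other 3. For normally distributed values, a gap of this relative size is found by chance in about 1 in 20 groups of this size. The vip values rest on 1 to 16 counts, and all 4 members were searched, so this rate need not hold here. The mutant effect on gcgb was less negative in EECs than in PECs, by 2.40 on the log2 scale (adjusted p = 0.0545, interaction in edgeR). It was -6.30 in EECs and -8.68 in PECs, and the difference did not pass without pax6b-/- PEC replicate 1, wild-type EEC replicate 1 or pax6b-/- EEC replicate 1, with a range of 2.02 to 2.94 over 12 libraries left out in turn.

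The mutant effect on gcgra differed by 7.58 between the tissues (adjusted p = 1.65e-05, edgeR), with 1.81 in EECs and -5.75 in PECs. The difference held without any 1 library (6.90 to 7.99). For adcy7 the effect differed by -1.20 (adjusted p = 0.0780, edgeR), with -1.21 in EECs and 0.01 in PECs. With 1 library left out it ran from -1.33 to -1.05 and was called only in 3 of 12 cases, without wild-type PEC replicate 3, pax6b-/- PEC replicate 3 or wild-type EEC replicate 2.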

How the results depend on the processing

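No fitted log2 fold change of a member changed its direction under any alternative run. This does not cover vip, or vipb between genotypes in PECs, which were not tested. In EECs the vipb change between genotypes was -2.15 and called by DESeq2, and ran from -2.60 to -1.05 with 1 library left out. The adcyap1b value with 1 library left out ran from 1.52 to 2.50 between wild-type tissues, from 0.20 to 0.61 between pax6b-/- tissues (called without pax6b-/- PEC replicate 3, adjusted p = 0.0852, edgeR) and from -2.06 to -1.13 for the interaction, where 0 to 1 members were called.

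With a replicate block, which changed no call of a member, adcyap1b was 4.34 in PECs, 2.79 in EECs, and 0.38 between pax6b-/- tissues, where 8508 genes were called, against 7599 without the block. The block ended the PEC calls of vipr2 (-2.20, adjusted p = 0.122, edgeR), pcsk2, pam, ADCY2 and RAPGEF4, the EEC call of RAPGEF4, and that of adcyap1r1b between wild-type tissues. Outside the pax6b-/- tissue comparison, same-numbered libraries correlated at -0.192 to 0.133. In no comparison does a source say that same-numbered libraries share more than a number.

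In PECs 2089 genes were called, 1199 with the block and 1148 to 3873 with 1 library left out, the highest without wild-type PEC replicate 3. In EECs 780 genes were called, 1705 by DESeq2, 477 at a threshold of 0.05, and 391 to 678 with 1 library left out. The interaction gave 755, 1379 by DESeq2, 480 at 0.05, and 503 to 1017 with 1 library left out. The causes were not tested. Depth limits vip outside pax6b-/- EEC replicate 1, and vipb and adcyap1a in PECs (0 to 20 counts per library).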
